A study of Homo sapiens with 9 samples.

Results

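CHPF encodes chondroitin polymerizing factor, a member of the enzyme family that builds chondroitin sulfate, and it was studied here together with the other genes that make this sugar chain. Of 10 listed genes (CHPF, CHPF2, CHSY1, CHSY3, CSGALNACT1, CSGALNACT2, XYLT1, XYLT2, B3GAT3 and CHST11), 9 had values among the 14943 genes of the count table, and the level of CHSY3 was not analysed here. CHPF was picked because of its own values: in an earlier analysis of the same libraries it stood among the 5 rising genes with the smallest adjusted p in a fit over concentration. Its levels and fold changes are therefore given as a description, without a test, and the tests concern the other 8 genes.

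The cells were SH-Sy5y, a human neuroblastoma line, in 3 groups of 3 replicates transfected by lipofection and harvested after 48 h for polyA RNA-seq. Control cells (Ctrl.) received 40 pmol of a negative control oligonucleotide and no mimic. The 10 nM group received 20 pmol of a miR-1229-3p mimic with 20 pmol of the control oligonucleotide, and the 20 nM group 40 pmol of mimic with 0 pmol of it, so that in the 20 nM group the presence of the mimic and the absence of the control oligonucleotide cannot be told apart. RNA of a pair of wells was pooled where possible, and nothing in the labels says that replicates came from separate cultures, so p-values measure the spread between these libraries, which may be technical.

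Chondroitin sulfate is a long chain of alternating glucuronic acid and N-acetylgalactosamine, carried by core proteins of the cell surface and the extracellular matrix. A xylosyltransferase places the first sugar on a serine of the core protein, a short linkage region is completed on it, and the addition of N-acetylgalactosamine commits the chain to chondroitin rather than heparan sulfate. Enzymes of the chondroitin synthase family then extend the chain in the Golgi, and sulfotransferases decorate it. In the nervous system chondroitin sulfate proteoglycans surround synapses in perineuronal nets and restrain axon growth. A microRNA acts on this or any pathway by pairing its seed, bases 2 to 8 from its 5′ end, with messenger RNAs, mostly in their 3′ untranslated region (UTR).

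The mature microRNA is shown first, because its seed (in capitals) is what the 3′ UTRs of the synthesis genes were searched for. It lies on chr5:179798278-179798300, minus strand (RefSeq, GRCh38.p14).
miR-1229-3p: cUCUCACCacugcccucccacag

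The letters searched for were GTGAGA (a 6-mer), GTGAGAA or GGTGAGA (both 7-mers) and GGTGAGAA (an 8-mer) in the longest annotated 3′ UTR of each gene. CHPF itself had no match in its 3′ UTR of 429 bases, and neither did CHPF2 (939 bases), CHSY1 (1661 bases), XYLT2 (894 bases) or B3GAT3 (889 bases). Of the 9 genes, 3 held a 7-mer, against 22.6% of 13779 genes with a 7-mer or 8-mer, and CSGALNACT1 held a 6-mer as its strongest match, against 15.8%. The 7-mer matches are shown because they were the longest found in the synthesis genes, with the match in capitals and 8 flanking bases on each side. All lie in the last exon (GRCh38.p14).
CSGALNACT2, chr10:43183682-43183704, plus strand: aacttgatGTGAGAAgaaaaaac
CSGALNACT2, chr10:43183725-43183747, plus strand: tctgttttGTGAGAAtactgcac
XYLT1, chr16:17105451-17105473, minus strand: cccgtgttGTGAGAAgcgcgctg
XYLT1, chr16:17105400-17105422, minus strand: gctttcctGGTGAGAtcatgagt
CHST11, chr12:104757923-104757945, plus strand: gcagcataGTGAGAAttatttaa
CHST11, chr12:104759091-104759113, plus strand: aatgccaaGGTGAGActcgtaca
CHST11, chr12:104760674-104760696, plus strand: tctcttaaGTGAGAAagattgtc

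Libraries held 17.4 to 28.2 M estimated counts, and the levels below are CPM, counts brought to a common library total after TMM scaling. Replicate 3 of the 20 nM group stood apart: on the first principal component (30.4% of the variance) it lay at 47.4, with the other 8 libraries between -17.1 and 7.72. Fold changes come from a fit over all 9 libraries with a surrogate variable, a term for unexplained variation between libraries, whereas CPM are not corrected for it. That fit held no term for the replicate number, although same-numbered libraries were more alike than others. A fit with such a term, the replicate block, is given for some genes. An adjusted p is that of the edgeR quasi-likelihood test after Benjamini-Hochberg adjustment over 14943 genes, with a threshold of 0.05. The comparisons of 10 nM and of 20 nM with Ctrl. share the control libraries. Of 15 noradrenergic neuroblastoma markers 15 had counts, TH among them at only 0.122 to 0.914 CPM. Their summed level was 7176 to 7307 CPM in Ctrl., 7492 to 8114 CPM at 10 nM and 7176 to 8563 CPM at 20 nM. The 15 measured mesenchymal markers of 16 summed to 1729 to 1916, 1741 to 1941 and 1825 to 1902 CPM. The part of cell state in the results below was not tested.

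CHPF (ENSG00000123989, chr2:219538954-219543809, minus strand) rose with each step of the mimic. In control libraries it stood at 90.3, 96.6 and 97.3 CPM, at 10 nM at 116, 123 and 135 CPM, and at 20 nM at 147, 160 and 200 CPM. The 3 groups did not overlap, and the highest value was that of the library that stood apart. Such an order of non-overlapping groups, rising with concentration, was found in 2.16% of all genes. The means were 94.7 ± 3.86, 124 ± 9.55 and 169 ± 27.5 CPM (SD, n = 3). Compared within replicate numbers, 10 nM was 1.28-, 1.27- and 1.38-fold over Ctrl. and 20 nM 1.62-, 1.66- and 2.05-fold over Ctrl. The fitted log2 fold change was 0.35 (SE 0.0457) at 10 nM and 0.65 (SE 0.0508) at 20 nM, that is 1.27- and 1.57-fold. From 10 nM to 20 nM it was 0.31 (SE 0.0479). Without replicate 3 of the 20 nM group the log2 fold change at 20 nM was 0.69, and a fit that took the replicate number as a block, and no surrogate variable, gave 0.82 (SE 0.0713), with 0.39 (SE 0.0715) at 10 nM.

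**Figure D1:**
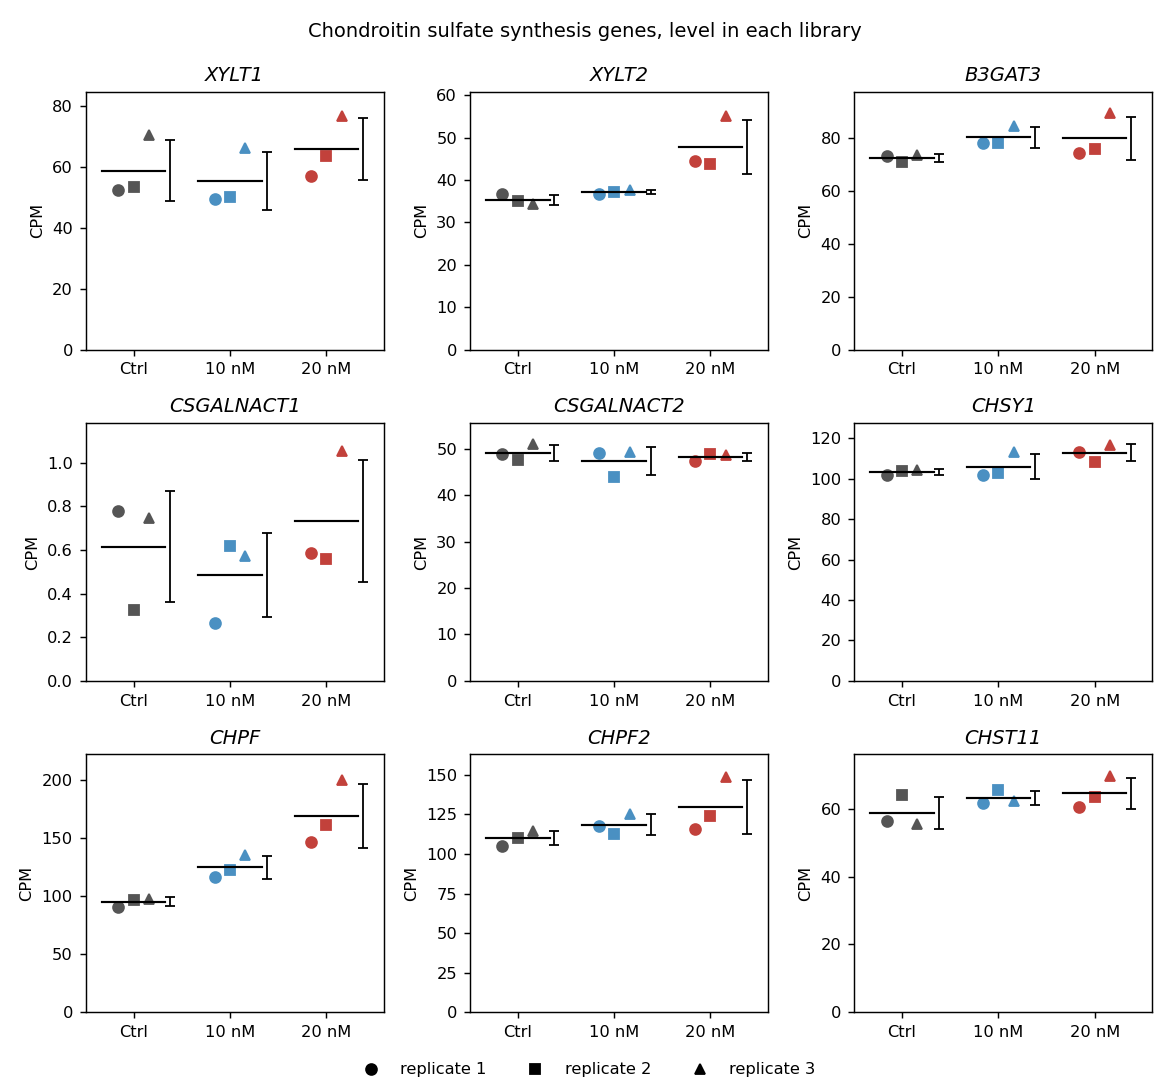
Level of each chondroitin sulfate synthesis gene in CPM (y axes start at 0) in every library of the Ctrl, 10 nM and 20 nM groups; lines are group means, bars the SD (n = 3) and marker shapes the replicate number. CHPF climbed from 90.3 to 97.3 CPM in Ctrl to 147 to 200 CPM at 20 nM, XYLT2 reached 43.7 to 55.2 CPM at 20 nM, and CSGALNACT2 stayed between 43.97 and 51.0 CPM.

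The other measured members of the chondroitin synthase family, CHPF2 and CHSY1, did not pass the test against Ctrl. at either concentration. CHPF2, the paralogue of CHPF, stood at 105, 110 and 114 CPM in Ctrl., at 118, 113 and 126 CPM at 10 nM and at 116, 124 and 149 CPM at 20 nM. Its 20 nM libraries all lay above the controls, but 10 nM reached into both other groups. The log2 fold change was 0.08 (SE 0.0458, adjusted p = 0.491) at 10 nM and 0.10 (SE 0.052, 95% interval -0.02 to 0.21, adjusted p = 0.253) at 20 nM. With the replicate block the 20 nM difference was 0.23 with an adjusted p of 0.0498, just past the threshold. Over concentration as a number, CHPF2 rose by 0.15 per 20 nM (SE 0.049, adjusted p = 0.0498), a call as near to the threshold. It was lost without replicate 3 of the 20 nM group (0.11, adjusted p = 0.132), without replicate 2 of that group (adjusted p = 0.161), without replicate 1 of the 10 nM group (adjusted p = 0.0715) and without each control replicate in turn (adjusted p = 0.16, 0.0716 and 0.0955 for replicates 1, 2 and 3).

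CHSY1, which carries both transferase activities of chain extension, had 102, 104 and 104 CPM in Ctrl., 102, 103 and 113 CPM at 10 nM and 113, 108 and 117 CPM at 20 nM. The 20 nM libraries lay a little above every control. The log2 fold change was 0.03 (SE 0.0471, adjusted p = 0.847) at 10 nM and 0.09 (SE 0.0531, interval -0.02 to 0.21, adjusted p = 0.294) at 20 nM.

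Since a ratio of 2 genes within a library does not depend on scaling, CHPF was also set against its family within each library. The ratio of CHPF to CHPF2 in CPM was 0.858, 0.875 and 0.852 in the controls, 0.985, 1.09 and 1.07 in the 10 nM libraries and 1.27, 1.29 and 1.34 in the 20 nM libraries. These groups did not overlap, in a gene picked for its rise, and the share of other gene pairs with such an order was not counted. The library that stood apart in its whole profile was close to the other 20 nM replicates by this ratio, though CHPF2 too was highest in it. The ratio of CHPF to CHSY1 was 0.917 ± 0.0249 for the controls, 1.17 ± 0.0298 for 10 nM and 1.49 ± 0.208 for 20 nM (SD, n = 3). Its 20 nM values were 1.29, 1.48 and 1.71 for replicates 1, 2 and 3, so by this ratio the library that stood apart was the highest.

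The xylosyltransferases, which start the chain, differed from each other. XYLT2 had 36.7, 35.1 and 34.4 CPM in Ctrl., 36.7, 37.1 and 37.7 CPM at 10 nM and 44.5, 43.7 and 55.2 CPM at 20 nM. The highest control (36.684 CPM) lay barely below the lowest 10 nM library (36.687 CPM), whereas every 20 nM library was clearly above both groups. XYLT2 was thus the 1 of 8 other genes with 3 rising groups that did not overlap, an order found in 2.16% of all genes. XYLT2 rose at 20 nM by a log2 fold change of 0.31 (SE 0.0625, interval 0.17 to 0.44, adjusted p = 0.00654), and this call was kept without replicate 3 of the 20 nM group (0.32, adjusted p = 0.00263). At 10 nM it was 0.04 (SE 0.0564, adjusted p = 0.806). The step from 10 nM to 20 nM was 0.27 (SE 0.0597, adjusted p = 0.0324). That step was no longer called when any one of the 10 nM replicates was left out (adjusted p = 0.0647, 0.0856 and 0.119 for replicates 1, 2 and 3), or without replicate 1 (0.165) or replicate 2 (0.0632) of the 20 nM group. Over concentration XYLT2 rose by 0.37 per 20 nM (SE 0.0622, adjusted p = 0.0012).

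XYLT1, the other xylosyltransferase, had 52.4, 53.6 and 70.4 CPM in Ctrl., 49.4, 50.2 and 66.3 CPM at 10 nM and 56.9, 63.7 and 76.9 CPM at 20 nM. Replicate 3 was the highest of each group, and the groups overlapped widely. Within replicate numbers, 10 nM was 0.942-, 0.937- and 0.942-fold over Ctrl. and 20 nM 1.09-, 1.19- and 1.09-fold over Ctrl. The log2 fold change was -0.15 (SE 0.107, adjusted p = 0.578) at 10 nM and -0.03 (SE 0.12, interval -0.29 to 0.23, adjusted p = 0.895) at 20 nM. With the replicate block the 20 nM value turned to 0.16 (SE 0.0569, adjusted p = 0.0854). It did not pass in either fit, and its direction depended on the fit. XYLT1 is listed in the count table under another identifier than in the annotation and was matched by symbol, and 2 of the 7-mers above lie in its 3′ UTR.

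B3GAT3 completes the linkage region by adding glucuronic acid. It had 72.9, 70.7 and 73.3 CPM in Ctrl., 77.9, 77.9 and 84.6 CPM at 10 nM and 74.4, 75.8 and 89.1 CPM at 20 nM. All mimic libraries exceeded all controls, by little in replicates 1 and 2 of the 20 nM group. At 10 nM the log2 fold change was 0.12 (SE 0.0434) with an unadjusted p of 0.0168 by the same edgeR test and an adjusted p of 0.244, and at 20 nM it was 0.03 (SE 0.0493, adjusted p = 0.72).

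CSGALNACT2, one of the enzymes that commit the chain to chondroitin by its first N-acetylgalactosamine, stayed close to one level. Its levels were 48.8, 47.6 and 51.0 CPM in Ctrl., 49.0, 43.97 and 49.2 CPM at 10 nM and 47.3, 48.9 and 48.6 CPM at 20 nM. The log2 fold change was -0.05 (SE 0.0568) at 10 nM and -0.04 (SE 0.0642, interval -0.18 to 0.10, adjusted p = 0.771) at 20 nM, and 2 of the seed matches printed above are its own. CSGALNACT1, its paralogue, was barely present, with 6 to 26 counts and 0.266 to 1.05 CPM per library, and at that depth the interval at 20 nM ran from -1.23 to 0.74.

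CHST11, a sulfotransferase that sulfates the 4-position of N-acetylgalactosamine, had 56.4, 64.3 and 55.7 CPM in Ctrl., 61.7, 65.6 and 62.5 CPM at 10 nM and 60.7, 63.5 and 69.7 CPM at 20 nM. The groups overlapped. The log2 fold change was 0.09 (SE 0.0584, adjusted p = 0.507) at 10 nM and 0.07 (SE 0.0661, interval -0.07 to 0.21, adjusted p = 0.534) at 20 nM. The 3 genes with printed matches thus had intervals that include 0 at both concentrations.

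Counted together, 0 of the 8 tested genes passed the threshold at 10 nM, where 0.649% of all genes did (0.221% higher, 0.428% lower). That count was also 0 by DESeq2 and by the edgeR likelihood-ratio test, and only B3GAT3 had an unadjusted p under 0.05. At 20 nM 1 of 8 (XYLT2) passed, against 13.9% of all genes (7.8% higher, 6.08% lower). With the replicate block it was 2 of 8, CHPF2 being the other. Between 20 nM and 10 nM 1 of 8 passed, XYLT2 again, against 2.79% of all genes (1.91% higher, 0.883% lower). Over concentration 2 of 8 passed, CHPF2 and XYLT2, against 17.5% of all genes (9.84% higher, 7.69% lower). The median log2 fold change of the 8 genes was 0.03 at 10 nM and 0.05 at 20 nM, and that of all genes lay within 0.003 of 0 in both. In 3 of 8 genes (CHPF2, XYLT2 and B3GAT3) every mimic library exceeded the control of its own number, which 14.1% of all genes did. In 4 of 8, those and CHSY1, the 20 nM libraries all lay above the controls, as in 15.2% of all genes.

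**Figure D2:**
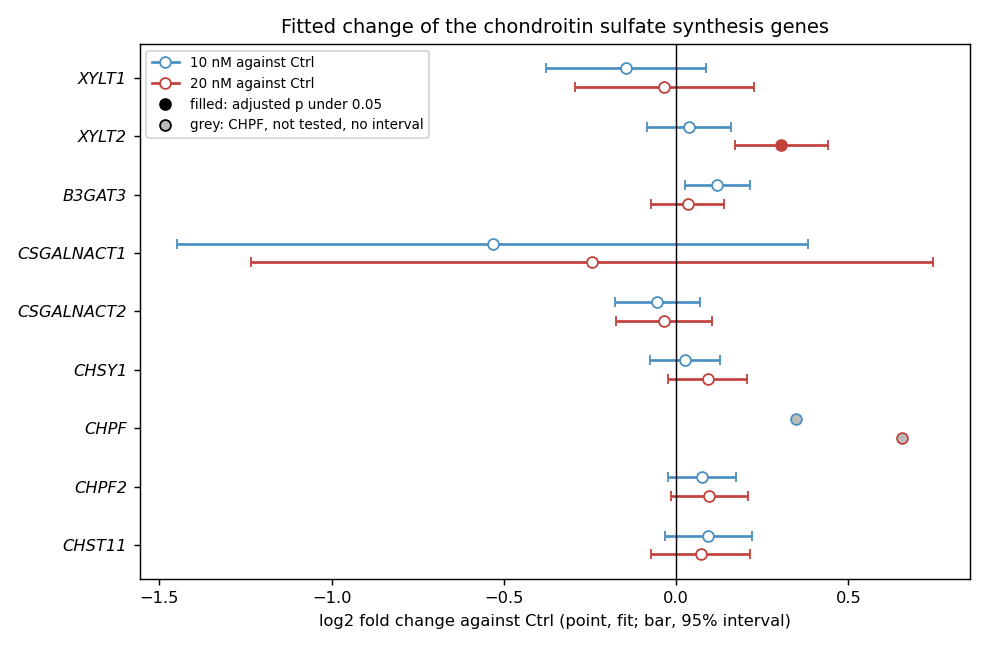
Fitted log2 fold change against Ctrl at 10 nM and 20 nM for the 9 synthesis genes, with 95% intervals; filled points passed an adjusted p of 0.05 and the grey points of CHPF were not tested and carry no interval. CHPF lay at 0.35 and 0.65, XYLT2 was called at 20 nM (0.31), and the wide bars of CSGALNACT1 go with its 6 to 26 counts.

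Levels of different genes can be compared only per length, so CPM were divided by the length in kb of the canonical transcript. In Ctrl. the order of CPM per kb was B3GAT3 (49.8 ± 0.985, SD, n = 3), CHPF (31.3 ± 1.27), CHPF2 (27.6 ± 1.14), CHSY1 (22.2 ± 0.305), CSGALNACT2 (13.1 ± 0.463), CHST11 (10.3 ± 0.832), XYLT2 (10.1 ± 0.338), XYLT1 (5.90 ± 1.01) and CSGALNACT1 (0.166 ± 0.0683). CHST11 and XYLT2 did not differ beyond their spread. At 20 nM CHPF stood at 55.8 ± 9.09 CPM per kb and B3GAT3 at 54.9 ± 5.61, which do not differ beyond their spread, and XYLT2 at 13.6 ± 1.83 had moved past CSGALNACT2 (12.8 ± 0.220) by less than its own SD.

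Among 13683 genes with a mean of at least 1 CPM, the levels most like those of CHPF over the 9 libraries, by Pearson's r of log2 CPM, were those of PTPRU (0.995), a receptor tyrosine phosphatase, PIEZO1 (0.991), a mechanically gated channel, UFC1 (0.989), the conjugating enzyme of the ubiquitin-like modifier UFM1, TRAF3 (0.987), a signalling adaptor, and VWA1 (0.987), an extracellular matrix protein. These values describe 9 points that share the groups and the library that stood apart. PTPRU had 93.4, 103 and 109 CPM in Ctrl., 127, 135 and 150 CPM at 10 nM and 155, 168 and 218 CPM at 20 nM, which is nearly the course of CHPF. The opposite course was closest in SPIN1 (-0.993), a histone reader that went from 151 to 157 CPM in Ctrl. to 123 to 135 CPM at 20 nM, and in SLC25A24 (-0.987), a mitochondrial carrier. Of the other 8 synthesis genes XYLT2 came nearest to CHPF (0.914, place 345 of 13683), then CHPF2 (0.880, place 624) and CHSY1 (0.834, place 1074). Among the sulfotransferases described further on, CHST3 was at place 8 (0.984), CHST7 at place 557 (0.888) and CHST12 at place 713 (0.870).

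**Figure D3:**
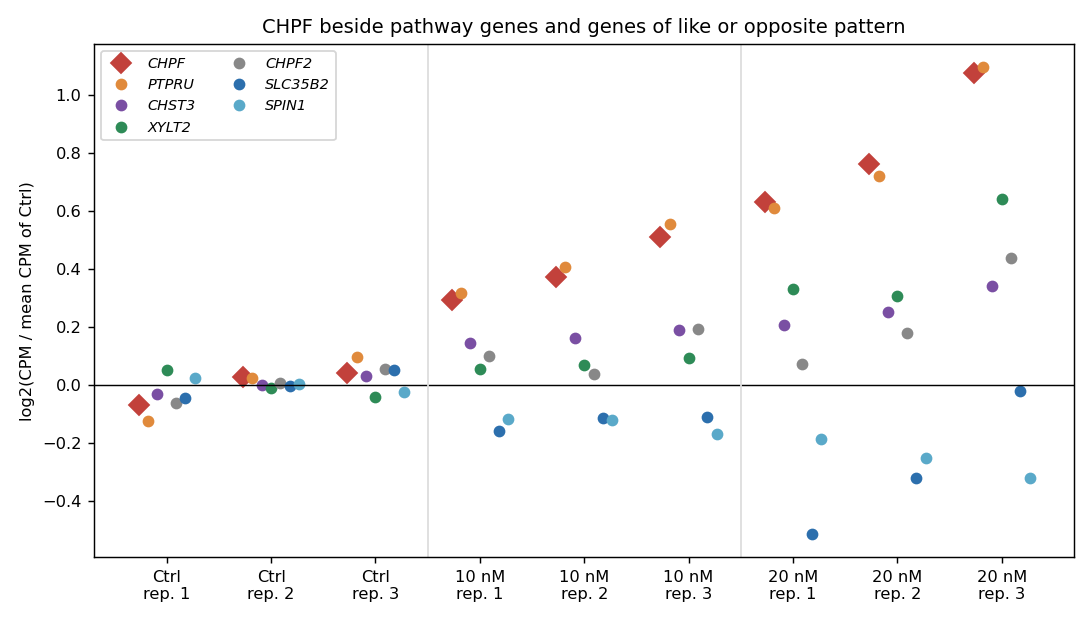
Level of CHPF and 6 other genes in each library as log2 of CPM over the control mean; diamonds are CHPF, and points are set slightly apart within a library. PTPRU (r = 0.995) ran beside CHPF, SPIN1 (r = -0.993) ran opposite, and SLC35B2 of replicate 3 at 20 nM lay near the controls (113 CPM) while its other 20 nM replicates lay at 79.9 and 91.3 CPM.

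CHPF lies in a dense stretch of chromosome 2, and none of the 3 genes next to it passed the test at 20 nM with all libraries in the fit. TMEM198, transcribed from the other strand, overlaps the 5′ end of CHPF by 147 bases (chr2:219543663-219550595), and whether strand was used in counting is not stated, so reads from the shared bases cannot be assigned. TMEM198 had 36.3 to 41.0 CPM in Ctrl., 35.6 to 44.6 CPM at 10 nM and 36.5 to 57.4 CPM at 20 nM, with a log2 fold change of -0.07 at 20 nM (SE 0.0699, adjusted p = 0.546) that turned to 0.20 with the replicate block (adjusted p = 0.178). ASIC4, an ion channel gene 182 bases to the left, was at -0.18 (SE 0.152, adjusted p = 0.486), but was called without control replicate 3 (-0.38, adjusted p = 0.0364). OBSL1, a cytoskeletal adaptor 6919 bases to the right, was at 0.10 (SE 0.0543, adjusted p = 0.276). Over concentration OBSL1 was at 0.15 per 20 nM (adjusted p = 0.0589), and was called by DESeq2 (adjusted p = 0.0497), by the likelihood-ratio test (0.0440), without replicate 2 of the 10 nM group (0.0329) and without replicate 1 of the 20 nM group (0.29, adjusted p = 0.0018).

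RefSeq gives CHPF 2 starts, and the far end of the outer promoter window is shown because it carries the letters TGACGTCA, the cAMP response element (a palindrome, so it reads the same on both strands), 2 times. The window of 300 bases (250 before the start and 50 after) was also searched on both strands for the E-box CACGTG, for the GC box GGGCGG and for the CCAAT box, and these motifs were chosen after the sequence had been seen. The stretch of 250 to 151 bases before the start of CHPF is chr2:219543960-219544059, minus strand (RefSeq, GRCh38.p14), with the motif in capitals.
CHPF: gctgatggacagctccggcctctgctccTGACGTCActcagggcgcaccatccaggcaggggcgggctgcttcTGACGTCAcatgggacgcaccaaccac

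Of 35116 promoter windows 1.85% held TGACGTCA at least once and 0.0598% held it 2 times or more. Of 9 listed synthesis genes with a window (CHSY3 among them, and CSGALNACT1 not), CHPF and B3GAT3 held it, and of 4 of the genes most like CHPF with a window PTPRU did. The outer CHPF window also held GGGCGG 3 times, and the E-box and the CCAAT box 0 times. Of all windows 45.0% held GGGCGG at least once and 26.7% held it 2 times or more. The inner window, chr2:219543048-219543347, held TGACGTCA, the E-box and GGGCGG 0 times each and the CCAAT box 1 time. The printed stretch also lies within TMEM198, which is transcribed from the other strand. A match describes the letters only, and whether any factor bound there was not measured.

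Genes around the pathway were grouped by role into 7 lists, 84 of whose 100 genes had values. At 20 nM 13 of the 84 were higher and 6 lower, 22.6% against 13.9% of all genes called, and at 10 nM 1 was higher (SPOCK2) and 0 lower, 1.19% against 0.649%. The lists were drawn up with earlier results of these libraries known, so these shares are a description. The 19 calls at 20 nM became 12 without replicate 1, 10 without replicate 2 and 24 without replicate 3 of the 20 nM group, and 8 without a surrogate variable. The 2074 calls over all genes became 1321, 1074, 2656 and 954 in the same fits. At 10 nM SPOCK2 was at 0.41 (SE 0.0778, adjusted p = 0.0323). That call was lost without a surrogate variable (adjusted p = 0.520) and with the replicate block (0.157). It was also lost without control replicate 1 or 2 (0.0919 and 0.0690). Leaving out replicate 1, 2 or 3 of the 10 nM group lost it too (0.0683, 0.139 and 0.0817). The 97 calls over all genes at 10 nM became 3 with the replicate block and 34 to 160 with single libraries left out, the lowest without control replicate 1 and the highest without replicate 3 of the 20 nM group.

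Seed matches were found among both the higher and the lower genes. Of the 84 genes 27 held a 7-mer or 8-mer, and 5 of these were higher (CHST3, EXTL2, GLCE, SPOCK2 and ARSB) and 2 lower (SLC35B2 and NDST1) at 20 nM. Of the 57 without one, 8 were higher and 4 lower, B3GALT6, HAPLN3 and HEXA among the lower. An 8-mer was found in 8 of the 84 (SLC35D1, SLC35B2, EXTL1, HS6ST2, DCN, IDS, CEMIP and PTPRD), of which 0 were higher and 1 lower, with a median log2 fold change of 0.20. The difference between genes with and without a match was not tested.

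The enzymes that sulfate and epimerize the chain held 7 measured genes of 9. At 20 nM 2 were higher and 0 lower, against 7.8% and 6.08% of all genes (median 0.13, all genes within 0.003 of 0). Both higher genes encode sulfotransferases that act at the 6-position. CHST3 had 62.1, 63.4 and 64.8 CPM in Ctrl., 70.0, 70.9 and 72.2 CPM at 10 nM and 73.2, 75.4 and 80.2 CPM at 20 nM. Its 3 groups rose without overlap, as those of 2.16% of all genes did. It rose at 20 nM by 0.22 (SE 0.0465, adjusted p = 0.00886), its 3′ UTR holds 2 seed 7-mers, and the call was lost without replicate 2 of the 20 nM group (0.20, adjusted p = 0.0624). CHST7 had 8.48, 7.73 and 8.19 CPM in Ctrl., 12.02, 10.4 and 11.7 CPM at 10 nM and 12.5, 10.9 and 14.9 CPM at 20 nM. Every mimic library was above every control. It rose by 0.52 (SE 0.121, adjusted p = 0.0124), a call lost without replicate 1 of the 20 nM group (0.45, adjusted p = 0.0692). CHST15, which adds a 6-sulfate to units that already carry one at the 4-position, had 6.92 ± 0.733 CPM in Ctrl. and 7.07 ± 0.633 CPM at 20 nM (SD, n = 3) and did not pass (0.05, SE 0.152, adjusted p = 0.880). The 4-position enzymes did not pass at 20 nM: CHST11 as above, CHST12 at 0.13 (SE 0.0492, adjusted p = 0.0903) and CHST14, which acts on dermatan sulfate, at 0.05 (SE 0.072, adjusted p = 0.737). CHST12 rose over concentration (0.21 per 20 nM, SE 0.0475, adjusted p = 0.00765). The difference between 6-position and 4-position enzymes was not tested.

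Over all genes 7.8% were higher and 6.08% lower at 20 nM. In the supply of sugar and sulfate donors 0 of 15 genes were higher and 1 lower (median 0.08). That gene was SLC35B2, which carries the sulfate donor PAPS into the Golgi and is the 1 gene called at 20 nM among the 8 with an 8-mer, so that its match is shown (chr6:44254312-44254335, minus strand, GRCh38.p14, match in capitals).
SLC35B2: cttaccctGGTGAGAAaagcacaa

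SLC35B2 had 111, 114 and 118 CPM in Ctrl., 102, 106 and 106 CPM at 10 nM and 79.9, 91.3 and 113 CPM at 20 nM. The 10 nM libraries all lay below the controls, while replicate 3 at 20 nM fell among them. SLC35B2 fell by 0.45 on the log2 scale at 20 nM (SE 0.0514, adjusted p = 0.000142), and without replicate 3 of the 20 nM group by 0.42 (adjusted p = 0.000451). With the replicate block the value was -0.28 and no longer called (adjusted p = 0.0555), and without a surrogate variable it was -0.27 and not called (adjusted p = 0.134). The genes of this list with the highest levels, CANT1, a nucleotidase of the Golgi (121 to 131 CPM in Ctrl., 122 to 158 CPM at 20 nM), and BPNT2, which removes a by-product of sulfation (108 to 111 and 104 to 109 CPM), had fitted changes within 0.01 of 0 on the log2 scale.

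In the linkage region beside the listed genes, 0 of 4 genes were higher and 1 lower at 20 nM (median -0.0023). Over all genes these shares were 7.8% and 6.08%. B3GALT6, which adds the second galactose, had 121, 122 and 122 CPM in Ctrl. and 102, 112 and 150 CPM at 20 nM, so that the library standing apart lay above the controls and the others below. The fitted log2 fold change was -0.23 (SE 0.0459, adjusted p = 0.00569), but with the replicate block it was -0.021 (adjusted p = 0.908) and without replicate 1 of the 20 nM group -0.12 (adjusted p = 0.224). Without a surrogate variable it was -0.0048 (adjusted p = 0.985). FAM20B, the xylose kinase of the linkage region, was at 0.05 (SE 0.0664, adjusted p = 0.685).

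Heparan sulfate shares the linkage region and competes for it. Of its 18 measured genes of 22, 4 were higher and 1 lower at 20 nM (median 0.06). Over all genes the shares were 7.8% and 6.08%. The 5 calls became 3 without replicate 1 and 3 without replicate 2 of the 20 nM group, and 0 without a surrogate variable. With the replicate block 2 were called, HS6ST2 and HS3ST2, neither of which is among the 5. NDST1, which starts heparan sulfate modification and holds 4 seed 7-mers, had 220, 227 and 215 CPM in Ctrl., 208, 205 and 210 CPM at 10 nM and 192, 192 and 203 CPM at 20 nM. The groups did not overlap and descended with concentration, and the share of all genes with such a falling order was not counted. NDST1 fell by 0.20 on the log2 scale at 20 nM (SE 0.0453, adjusted p = 0.0106). The call was lost with the replicate block (-0.17, adjusted p = 0.0609) and without replicate 1 or replicate 2 of the 20 nM group (adjusted p = 0.0602 and 0.0576). It was also lost without a surrogate variable (adjusted p = 0.0941). EXTL2, GLCE, HS2ST1 and HS3ST5 were the 4 higher genes, by 0.31 to 0.76, and EXTL2 and GLCE of replicate 3 at 20 nM lay below all controls (52.3 and 10.98 CPM) while the other 20 nM libraries lay above them.

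**Figure D4:**
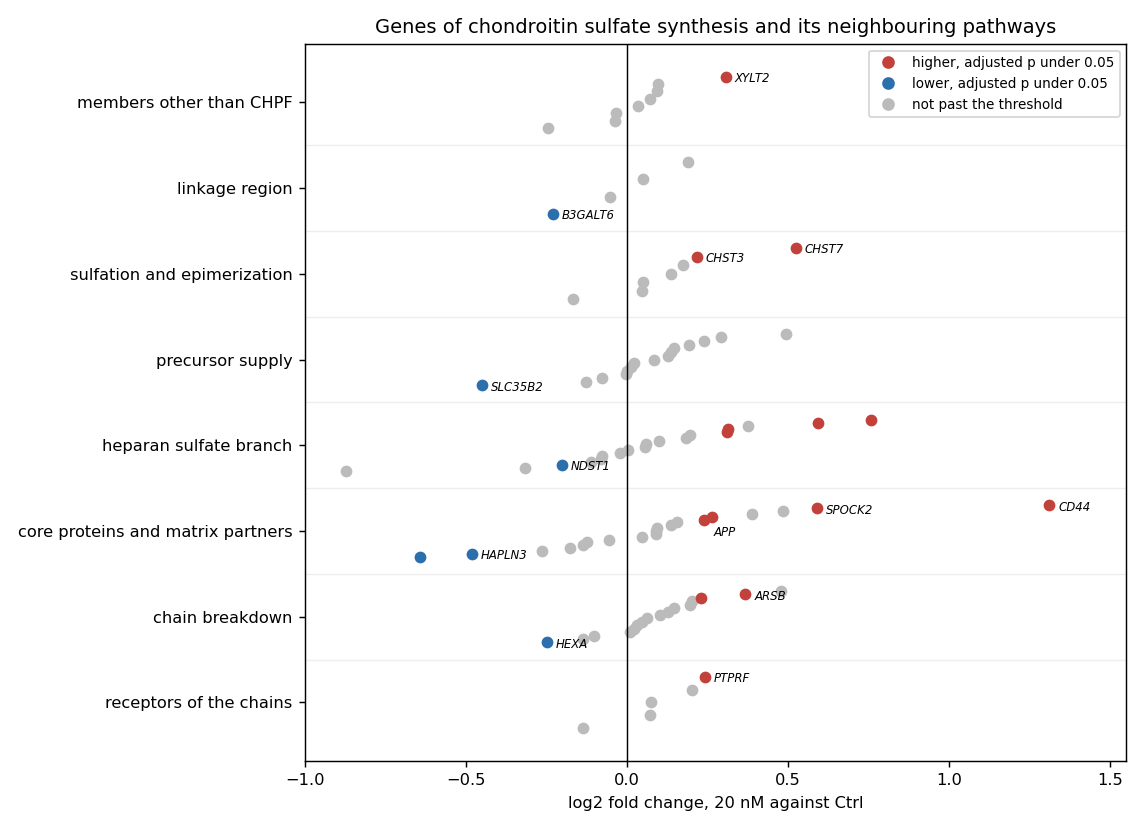
Fitted log2 fold change at 20 nM against Ctrl for the synthesis genes other than CHPF and the 7 lists around the pathway, one point per gene; red and blue points passed an adjusted p of 0.05, and those described by the rule for named genes carry a label. In the 7 lists 13 of 84 genes were higher and 6 lower (all genes, 7.8% and 6.08%), with CD44 (1.31) farthest to the right.

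Of the core proteins and matrix partners 19 of 26 had values, with 4 higher and 2 lower at 20 nM (median 0.09). Among all genes 7.8% were higher and 6.08% lower. The 6 calls became 2 without replicate 2 of the 20 nM group and 3 without control replicate 3. SPOCK2, a testican that carries such chains, had 25.9, 30.3 and 33.5 CPM in Ctrl., 39.0, 42.2 and 40.9 CPM at 10 nM and 46.8, 44.7 and 56.1 CPM at 20 nM. It rose by 0.59 at 20 nM (SE 0.0858, adjusted p = 0.000776). Its 3 groups rose without overlap, as those of 2.16% of all genes did. CD44, the hyaluronan receptor that can carry chondroitin sulfate and was also a mesenchymal marker, rose by 1.31 (SE 0.234, adjusted p = 0.00293) from 1.34 to 1.38 CPM in Ctrl. to 2.92 to 3.40 CPM at 20 nM. APP, of which some isoforms carry the chain, rose by 0.24 (SE 0.0561, adjusted p = 0.0136), a call lost without control replicate 3 (adjusted p = 0.0649) or 20 nM replicate 2 (0.0508). HAPLN3, a link protein, fell by 0.48 on the log2 scale (SE 0.137, adjusted p = 0.0353). The call was lost under 8 of 18 alternatives, among them the replicate block (adjusted p = 0.0705) and replicate 2 of the 20 nM group left out (0.224). Leaving out any one control replicate lost it too (adjusted p = 0.0573, 0.0662 and 0.0797 for replicates 1, 2 and 3).

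Of the genes of chain breakdown 16 of 18 had values, with 2 higher and 1 lower at 20 nM (median 0.08). Among all genes 7.8% were higher and 6.08% lower. The 3 calls became 1 without replicate 1 of the 20 nM group or without a surrogate variable, and 5 with the replicate block. ARSB, the lysosomal sulfatase of the 4-position, rose by 0.37 (SE 0.0715, adjusted p = 0.00491), from 45.9 to 47.6 CPM in Ctrl. to 52.2 to 62.6 CPM at 20 nM, a call lost without replicate 1 of the 20 nM group (0.27, adjusted p = 0.0763). The ARSB call was also lost without a surrogate variable (adjusted p = 0.0826). HEXA, a hexosaminidase subunit, fell by 0.25 on the log2 scale (SE 0.0506, adjusted p = 0.00635), from 65.5 to 68.3 CPM to 53.0 to 55.9 CPM. Among 5 measured receptors of the chains of 6, 1 was higher and 0 lower, to be set beside the same shares of all genes. PTPRF, a receptor phosphatase, rose by 0.24 (SE 0.0486, adjusted p = 0.00592), which was lost without replicate 2 of the 20 nM group (adjusted p = 0.0527), and PTPRS, a related receptor of these chains, was at -0.14 (SE 0.0642, adjusted p = 0.187).

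Markers of cell state moved alongside at 20 nM. Of the 15 noradrenergic markers 1 was higher and 5 lower, ISL1 and STMN2 among them, and of the 15 measured mesenchymal markers 3 were higher (CD44, SOX9 and LUM) and 0 lower, where 7.8% of all genes were higher and 6.08% lower. Among these calls, only DDC, ISL1, STMN2 and CD44 averaged at least 1 CPM and kept 1 direction in 6 of 6 same-numbered comparisons. Without replicate 2 of the 20 nM group the 6 noradrenergic calls became 3 and the 3 mesenchymal calls 1, and without replicate 3 the mesenchymal calls became 5. Without a surrogate variable 1 mesenchymal marker was called, and with the replicate block 5 noradrenergic markers were higher and 3 lower. DDC, which makes dopamine, rose by 0.46 (SE 0.0667, adjusted p = 0.000742), from 123 to 148 CPM in Ctrl. to 185 to 215 CPM. ISL1, a transcription factor of sympathetic neurons, fell by 0.27 on the log2 scale (SE 0.0552, adjusted p = 0.00717), a call lost without replicate 2 of the 20 nM group (adjusted p = 0.0512), and STMN2, a neuronal tubulin regulator, fell by 0.27 (SE 0.0612, adjusted p = 0.0114). The abundant mesenchymal markers VIM and TWIST1 were at -0.05 (SE 0.0433, adjusted p = 0.461) and 0.12 (SE 0.0753, adjusted p = 0.317). With the replicate block VIM was at -0.18 (adjusted p = 0.0881) and TWIST1 at 0.35 (adjusted p = 0.117). Over concentration TWIST1 rose by 0.23 per 20 nM (SE 0.0662, adjusted p = 0.0289). The call was lost under 6 of 17 alternatives, among them the replicate block (adjusted p = 0.0938) and no surrogate variable (0.105). Leaving out replicate 2 of the 20 nM group (0.114) or control replicate 3 (0.0917) lost it too. The part of these markers in the levels of the synthesis genes was not tested.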

How the data were processed

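PolyA RNA-seq libraries of SH-Sy5y cells were grouped by their titles. The authors quantified reads with Salmon on GRCh38.p13 (Ensembl 107), summed them by gene symbol and applied filterByExpr, and the deposited table holds estimated counts, 88.8% of them not whole. The versions of Salmon and edgeR are not given in the sources used here. The authors' own comparisons (fold changes and p-values) and their corrected log2 values were not used.

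Estimated counts were rounded and fitted with edgeR 4.0.16 (TMM, quasi-likelihood test) over 14943 genes, with surrogate variables from sva 3.50.0 (1 for the fit by group, 2 for concentration as a number). Benjamini-Hochberg adjustment ran over all genes, with a threshold of 0.05. Fold changes over concentration are per 20 nM, the SE is the log2 fold change over the square root of F, and intervals are at 95%. The fits were run on simulated counts that held no library standing apart and no replicate effect. Both had 1 surrogate variable there, so the run does not cover these features of the data. GENCODE (GRCh38.p14) gave gene positions and the longest 3′ UTRs, and 14105 genes matched it by identifier. R 4.3.3, Python 3.11.15, pandas 2.3.3 and matplotlib 3.10.9 were used.

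Members and lists were chosen with earlier results of these data known. Every listed gene with values was named. From each list up to 4 genes were named: those past the threshold at 20 nM with at least 1 CPM and 1 direction in 6 of 6 same-numbered comparisons, or else the 2 most abundant. To these came the 5 genes most like CHPF, the 2 least like it and its neighbours. CHST12, CHST14, CHST15, EXTL2, GLCE, HS2ST1, HS3ST2, HS3ST5, SOX9, LUM and the other genes with an 8-mer were added after their values had been seen. Some genes of the lists are counted but not reported here.

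Replicate numbers were checked by the correlation of deviations from group means over 13683 genes. For numbers 1, 2 and 3, same-numbered libraries of Ctrl. and 10 nM gave 0.217, 0.220 and 0.259. Those of Ctrl. and 20 nM gave 0.150, 0.135 and 0.140, and those of 10 nM and 20 nM gave 0.207, 0.0838 and 0.254. Libraries of different number, compared between groups, gave at most 0.0571. Deviations within a group cancel out, so these values tend to be negative wherever same-numbered ones are positive. Same-numbered libraries were thus more alike in all groups, by little between number 2 of 10 nM and of 20 nM (0.0838). The main fits held no term for the number, which entered only as the replicate block. Library totals of 17.4 to 28.2 M counts limit the precision of genes with few counts, such as CSGALNACT1.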

Additional observations from a re-analysis of the deposited data

How the results depend on the processing

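The alternatives were no surrogate variable, another number of them, the replicate block, library totals, DESeq2 size factors, DESeq2 1.42.0, the likelihood-ratio test, a mean of at least 1 CPM, only the groups compared, and each library left out. At 10 nM 0 of 8 genes passed under every one. At 20 nM the count of 1 became 2 with the replicate block and was 1 with each library left out, XYLT2 being called under every alternative (0.26 to 0.43). Between 20 nM and 10 nM the count of 1 became 0 without a surrogate variable and 0 with the replicate block, and 0 to 1 with single libraries left out. Over concentration the count of 2 became 1 without a surrogate variable, with 1 surrogate variable, with library totals, with DESeq2 size factors, with DESeq2 and with the CPM minimum, and 1 to 2 with single libraries left out, while the replicate block gave 2. Deviations from group means correlated between same-numbered libraries in each pairing of groups, most weakly between number 2 of 10 nM and of 20 nM (0.0838). Over all genes the 97 calls at 10 nM became 5 without a surrogate variable, 3 with the replicate block, 218 by DESeq2, 390 by the likelihood-ratio test and 268 with only the groups compared, and the 2074 at 20 nM became 954 without a surrogate variable and 1074 to 2656 with single libraries left out. Between 20 nM and 10 nM the 417 calls became 67 without a surrogate variable, 124 with the replicate block, 757 by the likelihood-ratio test and 111 to 462 with single libraries left out, and over concentration the 2620 became 1236 without a surrogate variable and 1668 to 3970 with single libraries left out. CHPF ranged from 0.62 to 0.83 at 20 nM and from 0.31 to 0.39 at 10 nM. The trend of B3GALT6 ran from -0.21 to 0.0074 with single libraries left out, the upper end being without replicate 1 of the 20 nM group. CSGALNACT1 had no value under the CPM minimum and no adjusted p from DESeq2. Of 631 values of the 9 genes under alternatives, 27 changed sign and none of these was called in either fit. Causes were not tested.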
